A study of Mus musculus with 3 samples.

Results

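Cluster 5 is a set of 973 T cell-labelled leukocytes of the inflamed mouse sciatic nerve, chosen by the authors' own deposited annotation: cells with the class Cd4 and the cluster number 5. They made up 8.36% of the 11640 cells in the series and 25.7% of the 3790 cells of the class Cd4, but held only 2.05% of the unique molecular identifiers (UMIs, the counted mRNA molecules). All cells were CD45+ leukocytes from sciatic nerves of NOD.AIRE GW/+ mice aged 15 weeks, and the nerves were digested with collagenase after cardiac perfusion. This genotype carries 1 copy of a dominant Aire allele on the NOD background, and such mice develop autoimmune peripheral neuropathy. The 3 libraries share that genotype, age and tissue, so cluster 5 is set here against T cell clusters 0 (class Cd4, 2225 cells), 2 (class Treg, regulatory T cells, 1287 cells) and 3 (class Cd8, 1117 cells) of the same libraries. The wild-type nerves that the design mentions were not analysed here.

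Libraries 1, 2 and 3 held 6033, 2333 and 3274 cells, with 22587246, 11398628 and 13791264 UMIs. Libraries 1 and 2 were sequenced from the 3′ end of the transcripts and library 3 from the 5′ end, so the sequencing end and library 3 cannot be told apart. The labels do not say whether the libraries come from separate animals, so a p-value here reflects how much the 3 libraries differed and nothing wider. Cluster 5 held 341 cells of library 1, or 5.65% (exact Clopper-Pearson 95% interval 5.08% to 6.27%), 67 cells of library 2, or 2.87% (2.23% to 3.63%), and 565 cells of library 3, or 17.3% (15.98% to 18.6%). The 3 intervals did not overlap, and library 3 gave over 3 times the share of library 1. These intervals cover counting error only. Barcodes found in more than 1 library numbered 6, none of them in cluster 5, and no cell of cluster 5 was marked as a doublet.

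Conventional T cells read antigen through the T cell receptor and its CD3 chains, with CD4 or CD8 as coreceptor, and regulatory T cells carry the transcription factor Foxp3 and restrain the others. Integrin αvβ8, the dimer of the Itgav and Itgb8 products, binds latent TGF-beta on the surface of regulatory T cells and releases it in active form, while Tnfrsf9 encodes CD137, a costimulatory receptor induced on activated T cells. In a single cell, mitochondrial and nuclear RNA lie inside organelles, whereas most mRNA for ribosomal proteins, cytoskeleton and metabolism is cytosolic.

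The cells of cluster 5 were shallow, with a skewed mix of RNA. The median was 846, 975 and 872 UMIs per cell in libraries 1, 2 and 3, against 2754, 3818 and 3357 in cluster 0. Cluster 5 lay below clusters 0, 2 and 3 in every library, and its 593 cells under 1000 UMIs were 81.8% of all such cells in the series. The depth was 0.26 times the mean of the other clusters, a log2 difference of −1.92 ± 0.23 (SD, n = 3 libraries). The low depth and the higher mitochondrial share are part of how the cluster was described when it was chosen, so both are given here with no test. After each cell was thinned to 500 UMIs, the median number of genes per cell was 343, 364 and 389 in cluster 5, within or near the range of the other 3 clusters (313 to 348, 325 to 368 and 352 to 386).

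Mitochondrial UMIs made up a median of 8.43%, 7.48% and 5.91% per cell in cluster 5, against 4.03%, 2.93% and 1.46% in cluster 0. Malat1, a nuclear long noncoding RNA, took 8.45%, 6.14% and 2.85%, against 3.09%, 1.78% and 0.36%. Ribosomal protein mRNA was lower, at 4.69%, 5.08% and 4.76%, against 27.8%, 27.8% and 25.2% in cluster 0 and 20.3%, 18.9% and 16.5% in cluster 2. The median ribosomal shares did not overlap between cluster 5 and any of the other 3 clusters, and in library 3, 94.3% of single cells of cluster 5 lay under the 5th percentile of those clusters (97.4% and 86.6% in libraries 1 and 2).

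**Figure D1:**
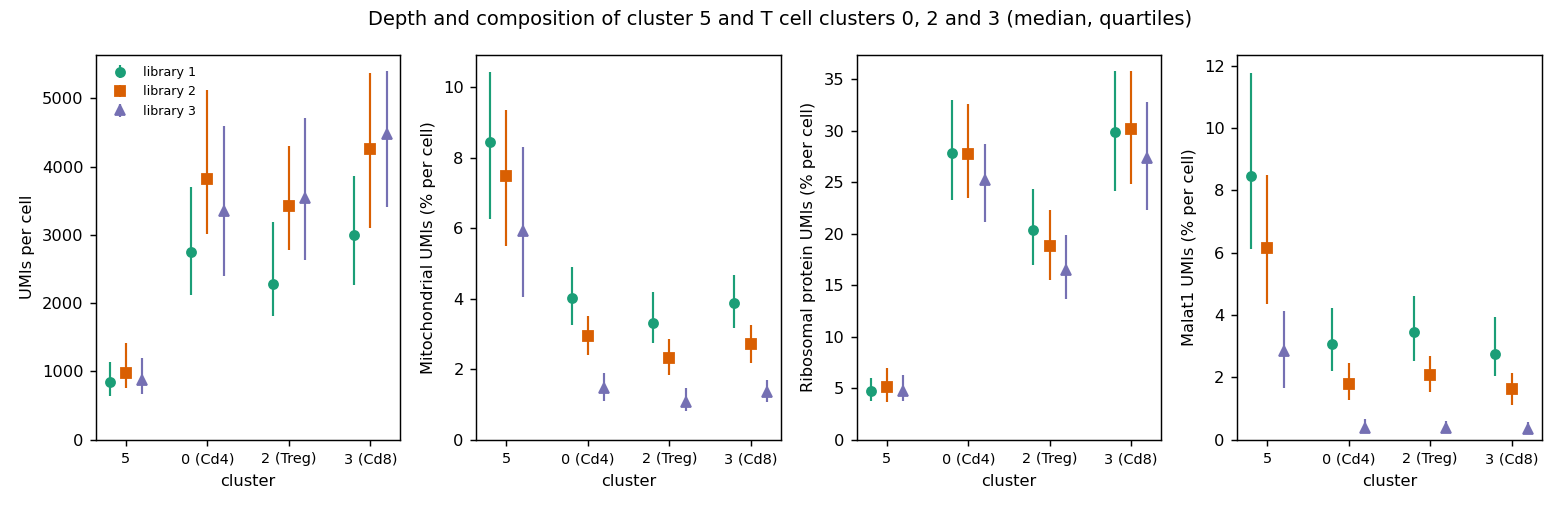
UMIs per cell and the percent of each cell's UMIs that are mitochondrial, ribosomal protein or Malat1, for cluster 5 and clusters 0, 2 and 3. Points are medians per library and bars are quartiles. Cluster 5 has the lowest depth and ribosomal share and the highest mitochondrial and Malat1 shares in every library.

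Counted per cell instead of as a share, Malat1 was at 80.2, 66.2 and 29.9 UMIs per cell in cluster 5 and 93.7, 75.9 and 17.2 in cluster 0. Ribosomal protein UMIs were 53.3, 84.6 and 57.5 per cell against 951, 1243 and 977. Mitochondrial UMIs were 75.1, 80.4 and 62.9 against 136, 132 and 58.9. In libraries 1 and 2 a cell of cluster 5 thus held slightly less Malat1 than a cell of cluster 0 and in library 3 more, while its ribosomal protein mRNA was far lower in all 3. Among cells between the 10th and 90th percentile of cluster 5 depth, the median ribosomal share was 4.63%, 4.97% and 4.67% in cluster 5 and 19.2%, 22.1% and 15.9% in cluster 0. Cluster 2 had 18.3%, 6.95% and 13.7% there and cluster 3 17.1%, 9.15% and 16.7%, with only 7 and 6 such cells in library 2. The depth and the mitochondrial and Malat1 shares differed between the same clusters across which every gene group is compared here. Their part in those results was not tested. Values for cells of the same depth range are given for some genes, and within that range cluster 5 was still the shallower.

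Both CD4 and CD8 transcripts were found among the cells. Cd3e, a chain of the T cell receptor complex, had a UMI in 27.0%, 38.8% and 73.6% of cluster 5 cells thinned to 500 UMIs, close to cluster 0 (27.1%, 26.3% and 64.5%) and above the B class (1.80%, 0% and 8.43%), whose median depths were 2869.5, 4450 and 4198 UMIs. Cd4 was found in 12.3%, 16.4% and 27.4% of the thinned cells, against 15.7%, 15.4% and 22.3% in cluster 0 and 0.622%, 0% and 1.45% of B cells. Cd8a or Cd8b1, which encode the 2 chains of CD8, was found in 8.50%, 8.96% and 32.7%, against 2.08%, 1.48% and 5.15% in cluster 0 and 36.0%, 34.1% and 46.9% in cluster 3. The B class gave 0.830%, 0% and 2.89% for CD8. The cluster thus held cells with Cd4 and cells with CD8 transcripts, and in library 3 the share with a CD8 UMI was the larger. The class name Cd4 goes against these values, so the cluster is called by its number below.

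**Figure D2:**
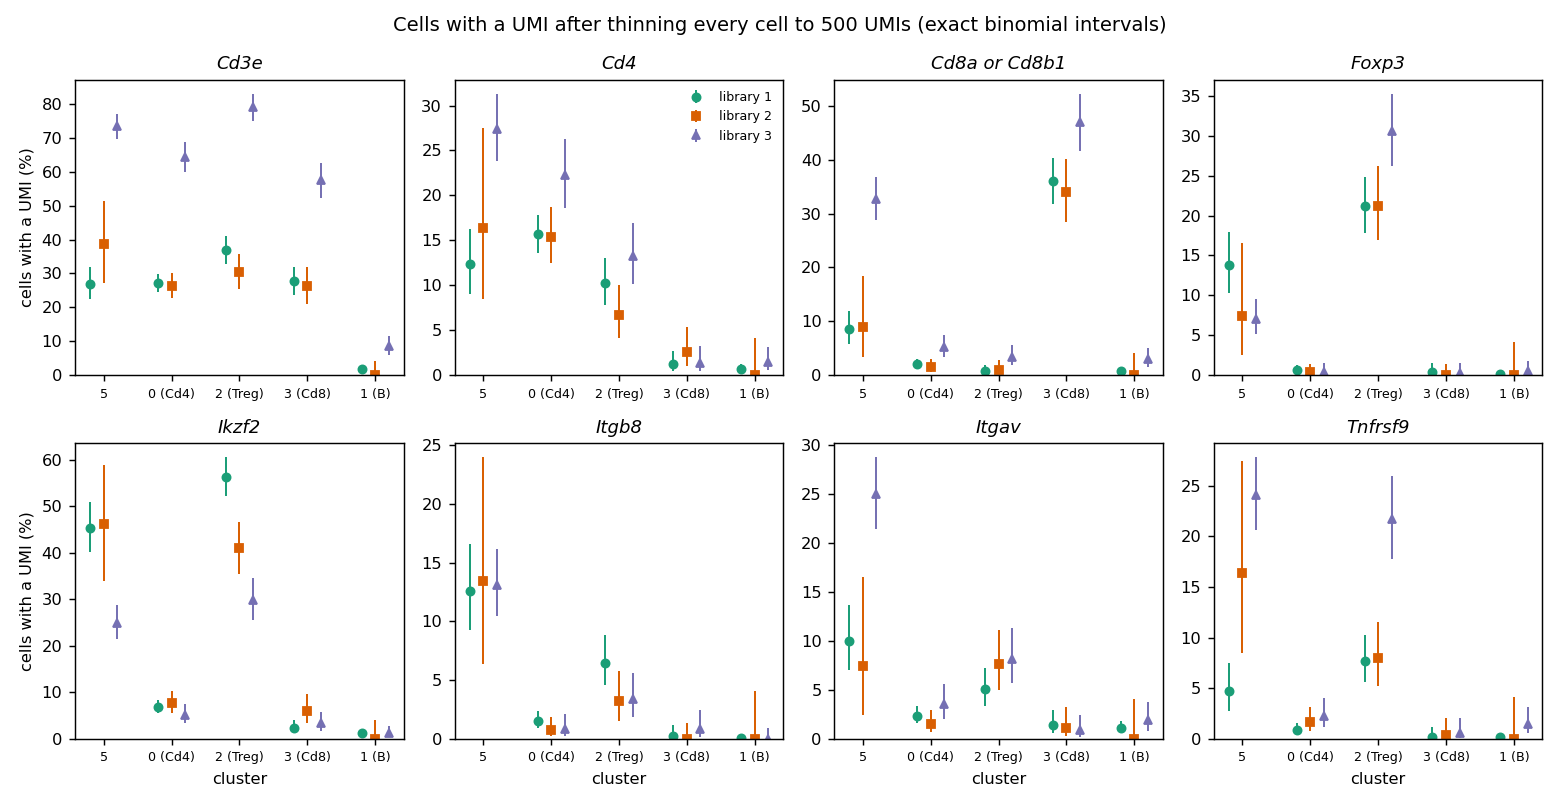
Percent of cells with at least 1 UMI after every cell was thinned to 500 UMIs, for 8 genes in cluster 5, T cell clusters 0, 2 and 3 and the B class as background. Points are libraries and bars are exact binomial 95% intervals. Cluster 5 carries Cd4, Cd8a or Cd8b1, and Foxp3 in every library, with Itgb8 at 12.6% to 13.4% of cells.

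Foxp3 had a UMI in 13.8%, 7.46% and 7.08% of thinned cluster 5 cells, between cluster 0 (0.666%, 0.371% and 0.412%) and cluster 2 (21.2%, 21.3% and 30.6%). Ikzf2, the transcription factor Helios of regulatory T cells, was in 45.5%, 46.3% and 25%, against 56.4%, 41.0% and 29.9% in cluster 2 and 6.83%, 7.61% and 5.15% in cluster 0. Without thinning, cluster 5 shares were 45.2%, 55.2% and 85.1% for Cd3e, 23.8%, 26.9% and 35.6% for Cd4, 15.0%, 11.9% and 43.5% for CD8 and 19.9%, 20.9% and 12% for Foxp3.

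To compare genes, UMIs were summed per library and cluster, and cluster 5 was set against the mean of clusters 0, 2 and 3 of its own library with edgeR's quasi-likelihood test. A gene is called higher or lower where the Benjamini-Hochberg adjusted p was under 0.05. The authors drew the clusters from these same counts, so a call gives the size of a difference against the spread of libraries and is no evidence that the clusters are distinct. Of 10049 genes tested, 2215 (22.0%) were called higher and 2365 (23.5%) lower, with a median log2 fold change over all genes of 0.01. Taking both directions, 45.6% of genes were called. Against cluster 0 alone, 20.2% of genes were higher and 24.1% lower (44.3% in all), against cluster 2 19.1% and 23.1%, and against cluster 3 20.6% and 22.9%. Against each of the 3 clusters singly, 1166 genes (11.6%) were higher and 1671 (16.6%) lower. These changes are relative to the total UMIs of each sum. Scaled by the number of cells instead, 120 genes (1.19%) were higher and 7406 (73.7%) lower, with a median log2 fold change of −1.33. Between cells of the same depth range, 1405 genes could be tested, with 303 (21.6%) higher and 260 (18.5%) lower. Only the range was matched, here and wherever the same depth is named. Within it the median was 846.5, 975 and 872 UMIs in cluster 5. It was 1384, 1507 and 1223 in cluster 0, 1414, 1429 and 1304 in cluster 2 and 1388, 1313 and 1192 in cluster 3. Over all cells, 773 of the 2215 higher and 1183 of the 2365 lower genes were called in the same direction whichever of the 3 libraries was left out. Without library 3, 1145 genes were higher and 1413 lower.

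Itgb8, on chromosome 12 (119158022 to 119238802, mm10), stood at 246, 179 and 242 CPM (counts per 1000000 UMIs of the sum, scaled by TMM) in libraries 1, 2 and 3. It was at 38.2, 30.1 and 30.3 in cluster 0, at 128, 91.0 and 75.3 in cluster 2 and at 3.35, 0 and 5.95 in cluster 3. Every cluster 5 value lay above every value of the other 3 clusters. The log2 fold change over their mean was 3.36 ± 0.20 (SE, adjusted p = 6.4e-12), and 4.14 between cells of the same depth. Relative to total UMIs it was higher than in each cluster, by 1.25 on the log2 scale over cluster 2, where regulatory T cells lie. After thinning, 12.6%, 13.4% and 13.1% of cluster 5 cells had an Itgb8 UMI, the same within counting error in the 3 libraries, against 6.46%, 3.17% and 3.37% in cluster 2 and 0.0692%, 0% and 0% of B cells.

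Itgav, the partner chain (chromosome 2, 83724397 to 83806916), was at 228, 255 and 458 CPM in cluster 5, at 157, 126 and 168 in cluster 2, at 48.7, 44.2 and 75.7 in cluster 0 and at 31.8, 30.4 and 43.0 in cluster 3. No value of cluster 5 overlapped with the others, and library 3 was the highest. The log2 fold change was 2.23 ± 0.14 (adjusted p = 2.2e-11), and 1.04 over cluster 2. Relative to total UMIs, both chains of αvβ8 were thus higher in cluster 5 than in the regulatory T cell cluster, but counted per cell neither passed the test. Itgb8 was at 0.284, 0.284 and 0.347 UMIs per cell in cluster 5 and at 0.318, 0.349 and 0.318 in cluster 2, a log2 fold change of −0.078 (adjusted p = 0.74). Itgav was at 0.264, 0.403 and 0.657 against 0.391, 0.483 and 0.708, lower in every library (−0.31, adjusted p = 0.12). Without thinning, 17.6%, 17.9% and 17.7% of cluster 5 cells had an Itgb8 UMI against 20.3%, 21.6% and 21.9% in cluster 2. Over the mean of the 3 clusters the per-cell log2 fold changes were 2.04 for Itgb8 and 0.90 for Itgav.

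Tnfrsf9 (chromosome 4, 150914562 to 150946102) did not share this order. It was at 122, 302 and 687 CPM in cluster 5 and at 232, 259 and 612 in cluster 2, and these ranges overlapped. Cluster 0 held 27.4, 51.2 and 56.7 and cluster 3 6.69, 10.1 and 25.8, below every cluster 5 value. The log2 fold change over the mean was 2.47 ± 0.19 (adjusted p = 7.7e-10), and over cluster 2 alone −0.08 (adjusted p = 0.78). Per cell, Tnfrsf9 was lower than in cluster 2 (−1.46, adjusted p = 3.1e-07). Of the 3 markers given for cluster 5, Itgb8 and Itgav were thus higher than in each of clusters 0, 2 and 3 relative to total UMIs, and by either scaling all 3 were higher than in clusters 0 and 3.

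**Figure D3:**
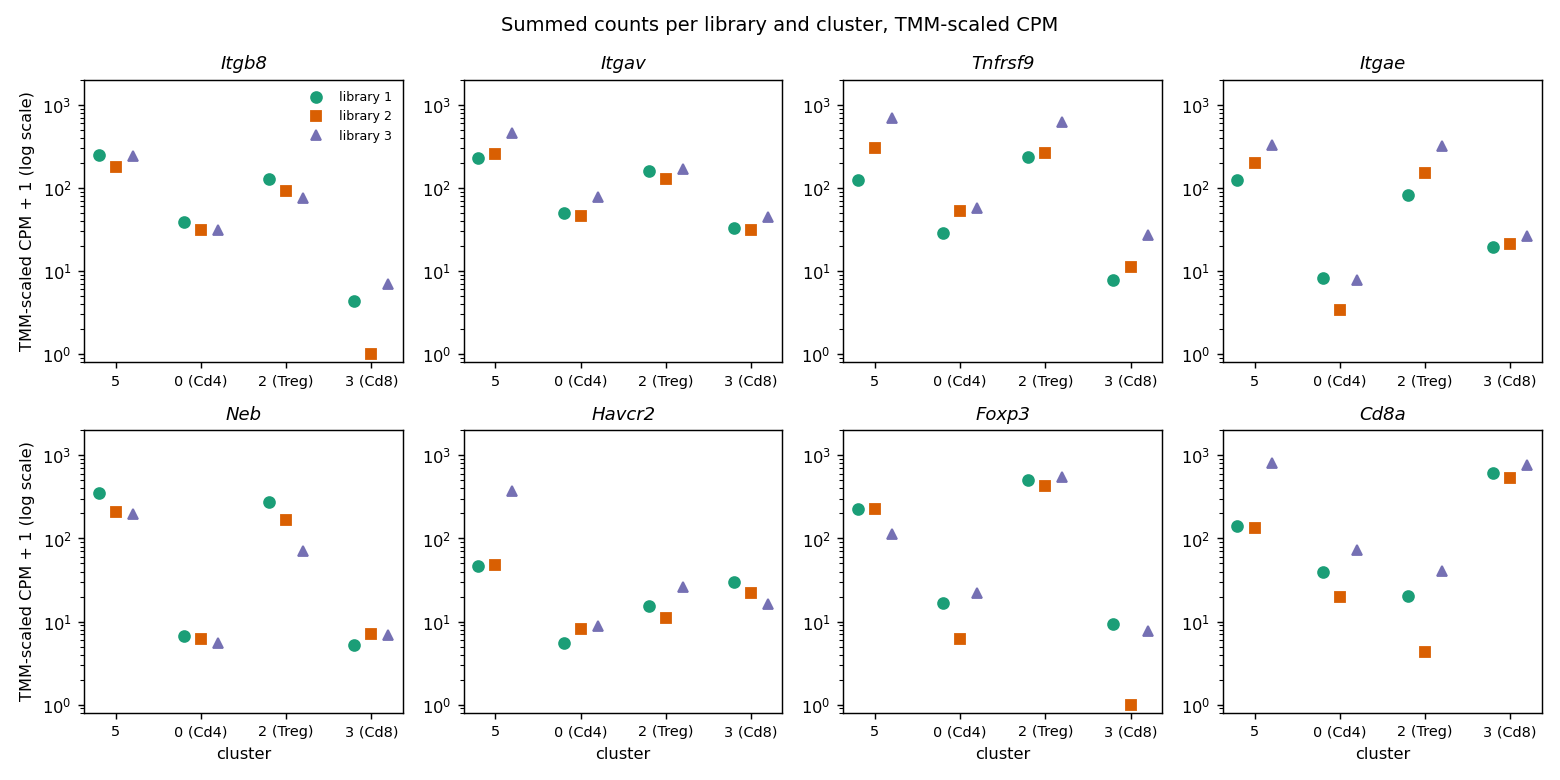
TMM-scaled CPM plus 1, on a log axis, of 8 genes in the summed counts of each library and cluster. Each point is 1 library. Itgb8 and Itgav are highest in cluster 5, Tnfrsf9, Itgae and Neb lie near cluster 2, Foxp3 lies between cluster 2 and clusters 0 and 3, and Havcr2 and Cd8a are far higher in library 3 than in libraries 1 and 2.

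The TGF-beta list held 18 genes, of which 16 were tested. Relative to total UMIs, 11 were higher, 6 of them than in each cluster, and none was lower, with a median log2 fold change of 0.72. Over all genes, 22.0% were higher, 23.5% lower and 11.6% higher than in each cluster. Scaled by cells 3 were higher (Itgb8, Itgav and Itgae) and 9 lower, where 1.19% of all genes were higher and 73.7% lower. Itgb8 and Itgav are markers given for the cluster beforehand, and both count among the 11 and the 6 above. At the same depth, 5 of 9 tested members were higher, against 21.6% of all genes. Itgae, the αE integrin chain induced by TGF-beta, was at 124, 198 and 331 CPM in cluster 5, close to cluster 2 (81.6, 148 and 320) and above clusters 0 (7.32, 2.35 and 6.73) and 3 (18.4, 20.3 and 25.1). Its log2 fold change was 2.89 ± 0.23 over the mean (adjusted p = 6.6e-10) and 0.28 over cluster 2 (adjusted p = 0.35). Tgfbr1, a TGF-beta receptor chain, rose by 1.67 ± 0.20 (adjusted p = 7.4e-07), from 106, 104 and 65.4 CPM against 23.5, 22.1 and 19.6 in cluster 0.

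Of the feedback inhibitors of the pathway, Smad7 was at 479, 660 and 363 CPM against 266, 377 and 175 in cluster 0, a log2 fold change over the mean of 0.74 ± 0.13 (adjusted p = 7.2e-05), and Skil rose by 0.61 ± 0.13 (adjusted p = 0.00043). Per cell, both were lower (−0.56 and −0.69). Tgfb1, the ligand, was called at 0.50 ± 0.14 (adjusted p = 0.0044), but not without library 3 (0.32, adjusted p = 0.18), and per cell it was lower (−0.82). Lrrc32, which tethers latent TGF-beta to regulatory T cells, was at 32.9, 18.9 and 11.1 CPM and below cluster 2 (50.5, 49.6 and 44.5). Its log2 fold change over the mean was 2.04 ± 0.48 (adjusted p = 0.0014), 1.19 without library 1 (adjusted p = 0.11) and 3.79 without library 3.

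Regulatory T cell genes were mostly higher than the mean of the 3 clusters. Of 7 markers, 6 were higher and none lower relative to total UMIs (median 2.04), against 22.0% and 23.5% over all genes. Scaled by cells 3 were higher and 2 lower, against 1.19% and 73.7%. Foxp3 was at 228, 226 and 112 CPM in cluster 5, at 508, 428 and 545 in cluster 2, and at 15.9, 5.17 and 21.3 in cluster 0, with no overlap among the 3. It was higher than the mean by 2.28 ± 0.29 (adjusted p = 1.2e-06) and lower than cluster 2 by −1.62 (adjusted p = 4.9e-05). Ikzf2 was at 1792, 1358 and 593 CPM against 1838, 1139 and 640 in cluster 2 (0.03, adjusted p = 0.9). Il2ra, the high-affinity interleukin 2 receptor chain, was at 144, 170 and 245 against 208, 184 and 238 in cluster 2, and Il10, which encodes a suppressive cytokine, at 144, 377 and 179 against 261, 382 and 227. Both were higher than the mean of the clusters, by 2.14 ± 0.19 and 2.35 ± 0.27. Against cluster 2, neither passed the test (−0.16, adjusted p = 0.51, and −0.47, adjusted p = 0.17).

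CD8 genes were higher as well, above all in library 3. Of 8 CD8 markers, 5 were higher and none lower relative to total UMIs, against 22.0% and 23.5% over all genes. The split was 3 higher and 2 lower without library 3. Scaled by cells 2 were higher and 4 lower, against 1.19% and 73.7% over all genes. Cd8a was at 142, 132 and 807 CPM, above cluster 0 (38.8, 18.8 and 71.2) and, in libraries 1 and 2, below cluster 3 (620, 529 and 773). Its log2 fold change over the mean was 1.97 ± 0.27 (adjusted p = 3.4e-06) and 1.16 without library 3. Cd8b1 was called at 1.37 ± 0.27 (adjusted p = 0.00029), and at 0.19 without library 3 it was not (adjusted p = 0.7). Gzmk, a granzyme of effector CD8 T cells, was at 38.0, 123 and 640 CPM, and its call of 0.81 ± 0.29 (adjusted p = 0.025) turned to −0.41 without library 3 (adjusted p = 0.37). Cd4 itself, at 261, 255 and 497 CPM, overlapped with clusters 0 (426, 361 and 515) and 2 (269, 191 and 283) and was called against neither. Against the mean of all 3, which includes the CD8 cluster, it was higher by 1.13 ± 0.18 (adjusted p = 2.3e-05).

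Checkpoint and costimulatory receptors were mostly higher relative to total UMIs. Of 8 checkpoint genes 7 were higher and none lower (median 1.18), 2 of them than in each cluster. Over all genes, 22.0% were higher, 23.5% lower and 11.6% higher than in each cluster. Without library 3, 4 were higher, and scaled by cells 1 was higher and 4 lower, against 73.7% of all genes lower. Havcr2, the inhibitory receptor TIM-3, was at 45.6, 47.2 and 376 CPM, above every value of clusters 0 (4.46, 7.05 and 7.85), 2 (14.4, 9.93 and 25.1) and 3 (29.3, 21.3 and 15.2). The log2 fold change of 3.66 ± 0.34 (adjusted p = 1.2e-08) was 1.92 without library 3 (adjusted p = 0.00014). After thinning to 500 UMIs, Havcr2 was in 2.35%, 2.99% and 13.8% of cluster 5 cells. It was in 7.23%, 11.4% and 9.19% of cells of cluster 4 (class Cd8) and in 3.72%, 3.37% and 4.65% of cluster 6 (class Cd4). Cluster 5 was thus below clusters 4 and 6 in libraries 1 and 2 and above them only in library 3. Ctla4 and Lag3, inhibitory receptors of activated and regulatory T cells, rose by 1.43 ± 0.13 and 1.66 ± 0.15. Ctla4 was at 933, 2339 and 2991 CPM against 1196, 1910 and 2205 in cluster 2, so their ranges overlapped.

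Of 11 costimulatory receptor genes, 8 were higher and 1 lower (median 0.70), against 22.0% and 23.5% over all genes. At the same depth 6 of 9 were higher, against 21.6% of all genes. Scaled by cells 1 was higher and 8 lower, near the 73.7% lower over all genes. The 1 was Tnfrsf9, a marker given for the cluster beforehand, which also counts among the 8 called higher. None of the 11 was higher than in each cluster. Tnfrsf4, which encodes OX40, was at 621, 1707 and 724 CPM, below cluster 2 (1723, 1720 and 2184) and above cluster 3 (56.9, 24.4 and 51.6). Its log2 fold change over the mean was 0.98 ± 0.21. Icos rose by 0.70 ± 0.10 (adjusted p = 8.4e-06) and Cd28 by 0.44 ± 0.13 (adjusted p = 0.0066), the latter not called without library 3 (0.24, adjusted p = 0.16). Tnfrsf25 was the member called lower, by −1.21 ± 0.43 (adjusted p = 0.026), and was not called without library 1 (−1.01, adjusted p = 0.12) or library 3 (−1.07, adjusted p = 0.26). Icos and Cd28 were lower per cell (−0.60 and −0.87). Tnfsf8, the CD30 ligand, was at 347, 245 and 106 CPM, between cluster 0 (1261, 1036 and 521) and cluster 2 (53.4, 49.6 and 25.1) in each library.

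Of 15 T cell receptor genes, 3 were higher and 4 lower relative to total UMIs (median −0.06), near the 22.0% and 23.5% over all genes, and all 15 were lower scaled by cells, against 73.7% of all genes. Cd3e did not pass the test (−0.06 ± 0.12, adjusted p = 0.7), at 644, 754 and 2612 CPM against 805, 706 and 2193 in cluster 0. Cd3d was lower by −0.92 ± 0.17 (adjusted p = 0.00014) and Cd3g by −0.54 ± 0.15 (adjusted p = 0.0041). At the same depth neither was called (0.11 and 0.13), and without library 1 Cd3g was not called (−0.23, adjusted p = 0.13). Trac, the constant region of the α chain, fell by 0.76 on the log2 scale, and Lat, the adaptor that relays the receptor signal, by 1.42. Of 12 antigen-receptor-induced genes, 4 were higher and 3 lower, and scaled by cells none and 9, against 22.0%, 23.5% and, scaled by cells, 73.7% lower over all genes. Nr4a2 rose by 1.44 ± 0.18, and Nfkbia, the inhibitor of NF-κB, fell by 1.35. Nr4a1 was called at −0.60 ± 0.23 (adjusted p = 0.036), at −0.64 without library 2 (adjusted p = 0.099) and 0.072 without library 3 (adjusted p = 0.82).

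The lists of housekeeping transcripts were lower almost as a whole, by either scaling. Over all genes, 23.5% were lower relative to total UMIs, 73.7% scaled by cells and 18.5% at the same depth, and 16.6% were lower than in each cluster. All 83 tested ribosomal protein genes were lower than in each of clusters 0, 2 and 3, with a median of −2.61, and all 83 were lower scaled by cells. At the same depth 78 of 80 were lower. Rps7, a small-subunit protein, was at 423, 490 and 569 CPM against 4364, 4633 and 4161 in cluster 0, a log2 fold change over the mean of −3.03 ± 0.13 (adjusted p = 4.2e-14). Of 84 tested nuclear-coded respiratory chain genes, 77 were lower and none higher (median −2.03), and 82 were lower scaled by cells. All 18 cytoskeleton and housekeeping genes were lower by either scaling (median −1.89), 13 of 17 at the same depth. Tmsb4x and Tmsb10, which encode the actin-binding thymosins, stood at 2884, 2942 and 1527 CPM and at 337, 575 and 627 CPM, against 17699, 17725 and 9594 and 2793, 5399 and 7072 in cluster 0. They fell by 2.61 and 3.23 on the log2 scale. Actb, β-actin, fell by 1.49, but at the same depth its −0.57 was not called (adjusted p = 0.15).

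Mitochondrially coded and nuclear transcripts were higher relative to total UMIs, and most were not scaled by cells. All 13 mitochondrial mRNAs were higher than in each cluster (median 1.04), 12 of 12 at the same depth and 10 without library 3. Scaled by cells, none was higher and 5 were lower. The higher mitochondrial share was part of how the cluster was described when it was chosen, so these calls restate it and are no separate result. mt-Co1, a cytochrome oxidase subunit, was at 9718, 8440 and 9584 CPM against 8419, 6122 and 3864 in cluster 0 (0.85 ± 0.13 over the mean). Per cell it was lower (−0.46). The nuclear-retained RNA list also includes Ptprc, the protein-coding mRNA of CD45 (log2 fold change 1.17). Of the list's 5 tested members, 4 were higher than in each cluster and at the same depth, against 11.6% and 21.6% of all genes. Scaled by cells 1 was higher and 1 lower, against 1.19% and 73.7%. Malat1 (chromosome 19, 5795690 to 5802672) was at 69331, 41842 and 20804 CPM against 35818, 19225 and 4689 in cluster 0, a log2 fold change over the mean of 1.49 ± 0.14 (adjusted p = 1.4e-08) and of 0.17 per cell. Of 16 RNA processing genes, 11 were higher and none lower (median 0.75), against 22.0% and 23.5% over all genes. Scaled by cells none was higher and 11 were lower, near the 73.7% lower over all genes. Ddx17, an RNA helicase, and Luc7l2, a splicing factor, rose by 1.28 ± 0.14 and 1.01 ± 0.13. At the same depth 4 of 15 list members were called higher, near the 21.6% over all genes.

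The direction of change went with the length of the transcript. The longest annotated transcript had a median of 5.09 kb in genes called higher, 1.94 kb in genes called lower and 3.30 kb in all genes. From the quintile of shortest to that of longest transcripts, the share of genes called higher rose from 5.51% through 8.23%, 15.2% and 28.9% to 53.2%, and the share called lower fell from 55.4% through 31.0%, 17.7% and 9.92% to 3.89%. The median log2 ratio went from −0.81 to 0.52 in library 1, from −0.80 to 0.21 in library 2 and from −0.84 to 0.65 in library 3, so the direction was the same in 3′ and 5′ libraries. Cluster 3 over cluster 0 (6.44% of genes higher and 8.06% lower) showed no such order, with 7.98% higher in the shortest and 5.96% in the longest quintile. Without mitochondrial and ribosomal protein genes, the share called higher still went from 4.98% to 52.6%, and at the same depth from 7.65% to 47.1%. Among genes of 20 to 100 CPM on average, the medians were 5.19 kb and 2.05 kb. Genes are not independent replicates, and this is a description across genes.

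**Figure D4:**
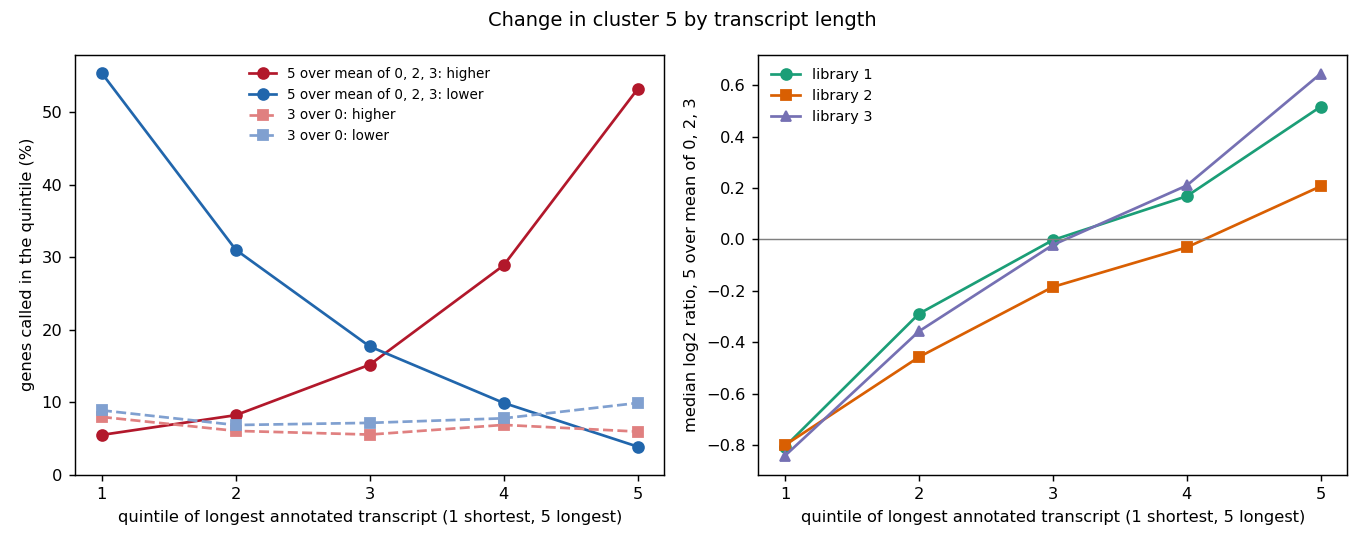
Left, percent of tested genes called higher or lower in each quintile of the longest annotated transcript, for cluster 5 over the mean of clusters 0, 2 and 3 (circles) and for cluster 3 over cluster 0 (squares). Right, the median log2 ratio of cluster 5 over that mean in each library. For cluster 5, higher calls go from 5.51% to 53.2% with length and lower calls from 55.4% to 3.89%, in contrast to 7.98% and 5.96% higher for cluster 3 over cluster 0.

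The 12 largest rises among genes on the same side of clusters 0, 2 and 3 in every library held Itgb8 and Havcr2 and, outside the lists, Neb, Ccdc80, Tmcc3, Setbp1 and Cers6. Neb, which encodes the giant muscle protein nebulin (chromosome 2, 52136647 to 52378474), was at 352, 207 and 194 CPM. Cluster 2 held 277, 165 and 69.6, cluster 0 5.73, 5.17 and 4.49, and cluster 3 4.18, 6.09 and 5.95. Its ranges overlapped with those of cluster 2, but within each library cluster 5 was higher. The log2 fold change was 4.03 ± 0.22 over the mean (adjusted p = 1.3e-12), 0.75 over cluster 2 and 2.72 over the mean per cell. Per cell it was lower than in cluster 2, at 0.408, 0.328 and 0.278 UMIs against 0.689, 0.635 and 0.294.

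Ccdc80 rose by 3.30 ± 0.39, Setbp1 by 2.57 ± 0.30 and Cers6, a ceramide synthase, by 2.40 ± 0.30. All were low, at 9.43 to 97.4 CPM in cluster 5, and without library 3 Cers6 stood at 1.35 (adjusted p = 0.032) and Ccdc80 at 2.72. Tmcc3, also low at 10.1, 9.43 and 29.6 CPM, rose by 3.16 ± 0.53, and by 3.93 without library 3. The 3.93 rests on very few UMIs, as cluster 5 summed to 327226 and 74106 UMIs in libraries 1 and 2. The largest falls were of genes with almost no counts in cluster 5. Bphl, a serine hydrolase, had 0 UMIs in cluster 5 against 181 in clusters 0, 2 and 3, at least 3.51-fold lower against a floor of 3 counts over the group. Lsm10, of the U7 snRNP that processes histone mRNA, had 1 against 259 (15.1-fold lower, counting interval 2.68 to 598). Both ratios are of UMIs pooled over the libraries, relative to total UMIs and without TMM scaling.

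Of 15 cell death genes, 4 were higher and 4 lower (median −0.08), near the 22.0% and 23.5% over all genes, and scaled by cells none was higher and 14 were lower, against 73.7% of all genes lower. Bax and Bak1, which open the mitochondrial outer membrane, fell by 1.49 and 1.53 on the log2 scale, Bak1 without a call when library 3 was left out (−1.28, adjusted p = 0.077). Mcl1, a survival protein, was at −0.49 ± 0.15 (adjusted p = 0.011), at −0.27 without library 3 (adjusted p = 0.17) and at 0.056 at the same depth. Of 18 dissociation and heat shock genes, none was higher and 10 were lower (median −0.61), against 22.0% and 23.5% over all genes. Scaled by cells all 18 were lower, against 73.7% of all genes. Among them were the chaperones Hspa8, at 826, 764 and 562 CPM against 1655, 1648 and 1939 in cluster 0, and Dnajb1, which fell by 1.36. At the same depth 2 of 13 were lower, against 18.5% of all genes.

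Of 16 egress, naive and residency genes, 5 were higher and 3 lower, and scaled by cells none and 13, against 22.0%, 23.5% and, scaled by cells, 73.7% lower over all genes. Klf2, the transcription factor that drives exit from tissue, was at 165, 151 and 69.1 CPM, below every value of clusters 0 (374, 631 and 1071), 2 (245, 329 and 475) and 3 (381, 506 and 872). It fell by 2.12 on the log2 scale (adjusted p = 5.5e-06), by 3.02 without library 1 and by 1.13 without library 3. Tcf7, a factor of naive and memory T cells, fell by 1.27 over the mean, and over cluster 2 alone it was at 0.38 (adjusted p = 0.33).

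Markers of other cells were present at low levels. The summed CPM of the B list was 553, 229 and 142 in cluster 5, 227, 78.4 and 135 in cluster 0 and 554, 336 and 421 in cluster 2. The macrophage list was at 406, 81.0 and 64.2 against 140, 27.0 and 39.5 in cluster 0, the highest of it in library 1. Of its 6 tested members 2 were called higher, against 22.0% of all genes. The NK list was at 48.9, 40.5 and 233, against 248, 183 and 207 in cluster 3, so cluster 5 was lower in libraries 1 and 2 and higher in library 3. The Schwann cell list was at 101, 40.5 and 76.4, against 121, 89.98 and 106 in cluster 0. Pmp22 and Prx, which encode myelin proteins of Schwann cells, were at 0 in cluster 5, as were Dcn and Cdh5 of fibroblasts and endothelium and S100a8 of neutrophils. Dcn and Cdh5 do not stand for their list. The stroma and endothelium list was at 101, 54.0 and 52.1, against 52.6, 51.0 and 57.6 in cluster 0. Of 3 tested dividing-cell genes, 2 were higher, against 22.0% of all genes. The part of these cells in the results was not tested.

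Within cluster 5, cells with a Cd8a or Cd8b1 UMI and no Cd4 UMI (45, 7 and 217 in libraries 1, 2 and 3) were compared with cells with a Cd4 UMI and no CD8 UMI (75, 17 and 172). A further 215, 42 and 147 cells had neither and 6, 1 and 29 had both. Library 2 was too small for the planned test, so libraries 1 and 3 were fitted, which leaves 2 pairs. Of 2684 genes tested, 40 (1.49%) were higher and 51 (1.9%) lower in the CD8 cells, or 3.39% in all. Klrk1, the activating receptor NKG2D, was at 230, 337 and 590 unscaled CPM in the CD8 cells and at 0, 0 and 45.9 in the CD4 cells, a log2 fold change of 3.95 ± 0.47 (adjusted p = 0.0012). Prf1, perforin, rose by 3.79 ± 0.42 and Gzmk by 2.28 ± 0.32. Klrc1, whose reads may be split with its near-copy Klrc2, rose by 4.09 ± 0.42.

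Among the genes lower in the CD8 cells, Tnfrsf4 was at 916, 1932 and 2091 CPM in the CD4 cells against 230, 337 and 138 in the CD8 cells (−3.34 ± 0.40). Tnfsf8 was at −3.25 ± 0.39. Foxp3 was at 211, 170 and 315 in the CD4 cells against 95.7, 0 and 23.0 in the CD8 cells (−2.90 ± 0.51, adjusted p = 0.0081). In the same order, Itgae was at 235, 398 and 715 against 57.4, 0 and 84.2 (−2.91 ± 0.35, adjusted p = 0.0012). Itgb8 was lower in CD8 cells (−2.94 ± 0.55, adjusted p = 0.012), at 282, 56.8 and 662 CPM in CD4 and 172, 225 and 42.1 in CD8 cells, where library 2, with 3 UMIs in all, went the other way. Itgav (−0.67 ± 0.28, adjusted p = 0.3) and Tnfrsf9 (−1.03 ± 0.28, adjusted p = 0.09) were not called.

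Of 88 genes called in this split and tested between whole clusters 3 and 0, 84 had the same sign there and 74 were called in it. Over all 10049 genes, 14.5% were called between clusters 3 and 0. The share of same signs over all genes is not given here. Clusters 3 and 0 are themselves of the classes Cd8 and Cd4, so the shared signs are no independent evidence. Fgl2 and Itgae were called in the opposite direction, and Itgae was higher by 1.75 on the log2 scale in cluster 3 than in cluster 0. The number of calls rests on library 3 and on the block for library, since 9 genes were called with library 2 in place of library 3 and none without the block (edgeR, 68 at an unadjusted p under 0.05, 36 adjusted by DESeq2 with the block).

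**Figure D5:**
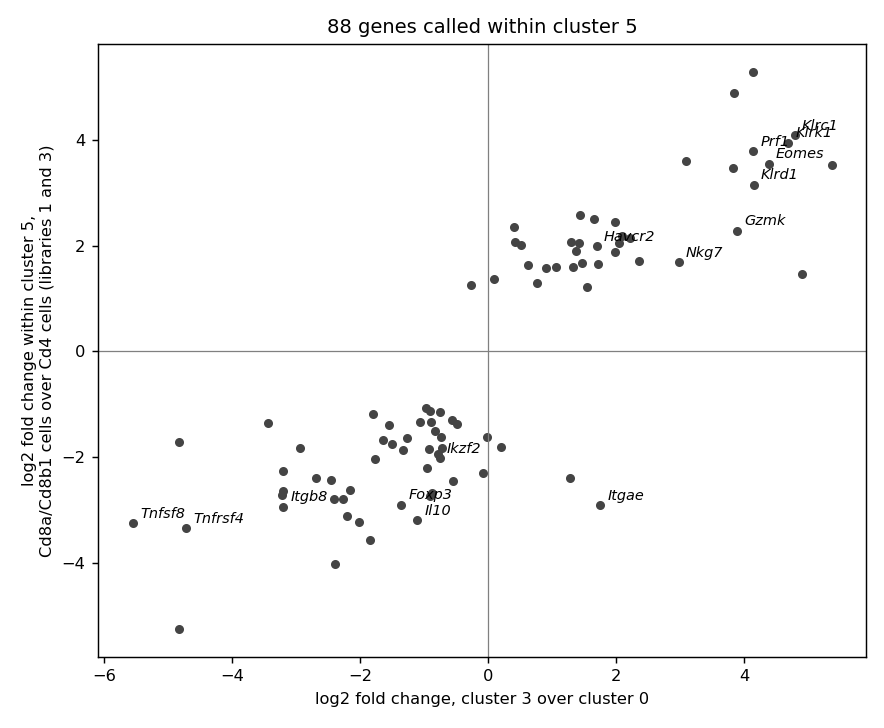
Each point is 1 of 88 genes called between CD8 and CD4 cells of cluster 5 (vertical axis, log2 fold change) against its log2 fold change between clusters 3 and 0 (horizontal axis). 84 of the 88 lie in the quadrants of the same sign, and Itgae lies in the opposite one.

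Cells with an Itgb8 UMI numbered 60, 12 and 100, with a median of 1016.5, 1104.5 and 978.5 UMIs against 806, 955 and 853 in cells without. With the other gene read at 500 UMIs per cell, Foxp3 was found in 16.7%, 25% and 13% of them against 12.1%, 12.7% and 6.24% of cells without. Ikzf2 was found in 66.7%, 83.3% and 46.0% against 44.8%, 47.3% and 18.5%, and Tnfrsf9 in 15.0%, 25% and 53% against 2.49%, 9.09% and 21.9%. Itgav was found in 20.0%, 25% and 40.0% against 9.96%, 5.45% and 20.4%, and CD8 in 5%, 8.33% and 11% against 10.7%, 10.9% and 40.0%. Cd4 was found in 13.3%, 8.33% and 47% against 16.01%, 18.2% and 22.6%. Foxp3, Ikzf2, Tnfrsf9 and Itgav were more frequent, and CD8 less frequent, beside Itgb8 in every library, while Cd4 was less frequent in libraries 1 and 2 and more frequent in library 3, with no test. Over all genes, 3956 could be tested in libraries 1 and 3, with 2 (0.0506%) higher and 3 (0.0758%) lower, the 3 being Klrc1, Ms4a4b and Emb, named after their values were seen. The number called was 114 with DESeq2 size factors, 109 without a filter and 110 in cells over the median depth.

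By the whole profile, cluster 5 was less like clusters 0, 2 and 3 than cluster 0 was like cluster 2, in every library. Over 10049 genes at equal UMI sums, the correlation of log CPM with cluster 5 in library 1 was 0.843 for cluster 0, 0.861 for cluster 2, 0.829 for cluster 3, 0.796 for cluster 4 and 0.856 for cluster 6, against 0.949 between clusters 0 and 2. In library 2 the values for clusters 0, 2 and 3 were 0.796, 0.826 and 0.784 (0.881 between clusters 0 and 2), and in library 3 0.785, 0.796 and 0.776 (0.955). Cluster 2 was the nearest of these 3 in every library. Clusters 4 and 6 stood at 0.783 and 0.820 in library 2 and at 0.791 and 0.801 in library 3, where cluster 6 was nearer than cluster 2. These are descriptions across genes of shared libraries.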

How the data were processed

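The authors deposited UMI counts per gene and cell (17168 genes, 11640 cells) and a table of cells with class, cluster and percent of mitochondrial UMIs, taken here as the authors' deposited percent. Cell Ranger 5.0.1, Seurat 4.0 and mm10 are named per the submitters' processing notes, which give them no role. Cell cycle scores deposited by the authors were not used. Members and lists were chosen with earlier results of these data known. Counts were summed per library and cluster and fitted with edgeR 4.0.16 (R 4.3.3): TMM, filterByExpr, quasi-likelihood test with library as a block, Benjamini-Hochberg adjustment, threshold 0.05. The block pairs clusters of 1 library, whose deviations correlated at 0.34 to 0.70. Within cluster 5, a sum needed 20 cells: library 2 had fewer, so libraries 1 and 3 were fitted in place of the planned 3. DESeq2 1.42.0, other scalings, no filter, thinned cells, cells of the same depth and leaving out each library were alternatives. For shares, cells were thinned to 500 UMIs, with 0 cells of cluster 5 left out. Scrublet (scanpy 1.11.5) marked 84 doublets (0.722%), which stayed in. Scripts were tested on simulated data. Coordinates and transcript lengths came from GENCODE M21. Named genes were the 3 markers, list members and the 12 largest rises and falls on the same side in every library (8 per split), leaving out antigen-receptor, mitochondrial, ribosomal and unnamed genes.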

Additional observations from a re-analysis of the deposited data

How the results depend on the processing

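Counts of called genes are given in the order against the mean of clusters 0, 2 and 3 (4580 in the fit reported), against cluster 0, against cluster 2 and against cluster 3. Without the replicate block they were 2090, 1583, 1343 and 1575. In cells of the same depth range they were 563, 351, 342 and 247, in cells thinned to 500 UMIs 2628, 2237, 2150 and 2120, in sums thinned to the smallest sum 1286, 1039, 964 and 1025 (each with fewer genes or UMIs to test), and scaled by cells 7526, 7390, 7200 and 7124. Leaving out 1 library gave 2558 to 4120, 2727 to 3913, 2366 to 3805 and 2584 to 3829, and 668, 246, 370 and 251 at the same depth without library 2. For CD8 against CD4 cells, 91 genes became 162 with DESeq2 size factors, 36 with DESeq2, 150 without a filter and 0 without the replicate block, and 9 to 62 when library 1 or 3 gave way to library 2. For Itgb8 cells, 5 genes became 114 with DESeq2 size factors, 109 without a filter, 0 without the block (edgeR, 39 at an unadjusted p under 0.05, and 6 with DESeq2 and the block), 35 with library 2, 19 to 59 when library 1 or 3 was left out and 110 in the deeper cells. The causes were not tested. The share of thinned cells with an Itgb8 UMI, 13.1% on average, was 22.3% at 1000 UMIs and 12.9% to 13.3% without 1 library. The depth of cluster 5 was 1028 UMIs by means in place of medians and 859 to 924 without 1 library. Its share of a library was 4.26% to 11.5% without 1 library. Per cell, log2 fold changes reversed for Smad7 (−0.56), Skil (−0.69), Tgfb1 (−0.82), Cd4 (−0.21), Cd8b1 (−0.041), Gzmk (−0.61), Tnfrsf4 (−0.30), Tnfsf8 (−0.0086), Icos (−0.60), Cd28 (−0.87), Neat1 (−0.30), Ptprc (−0.16), Ddx17 (−0.032), Luc7l2 (−0.31) and mt-Co1 (−0.46). At the same depth Cd3d (0.11), Cd3g (0.13) and Mcl1 (0.056) reversed, as did Mcl1 at equal sums (0.32) and, without library 3, Gzmk (−0.41, and up to 1.33 without library 1) and Nr4a1 (0.072, and down to −0.97 without library 1). The other genes called and named in the report kept their direction under every alternative run for them. Of 59 genes named, 56 kept direction and call with DESeq2, 40 without the block and 52 of 54 in thinned cells. The choices listed were made with earlier results of these data known, and the cell-number scaling, the 5-cluster mean and the same-depth fit of libraries 1 and 3 were added after seeing the data. Depth limits what can be seen in cluster 5: at 500 UMIs, a cell without a UMI of a gene is not shown to lack it.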

Other observations

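Shallow cells of other classes were read in the same depth range. Of the B class of library 1, 72 of 1446 cells lay in it, with medians of 9.65% mitochondrial and 8.14% ribosomal protein UMIs, against 5.41% and 32.1% in all its B cells. In library 3, 52 of 415 B cells had 7.12% and 4.16%, against 1.85% and 26.3%. Among gamma-delta, NK and NKT cells of library 3, 46 of 316 had 8.47% and 4.07%, against 1.77% and 23.4%. The Cd4 class without cluster 5 gave 3.88% and 19.1% in 142 cells of library 1, and the Cd8 class 4.06% and 17.0% in 42 cells. In library 3 these 2 classes had ribosomal shares of 15.3% and 15.9%. In libraries 1 and 3, shallow B and NK-type cells thus had ribosomal shares nearer to cluster 5 than shallow other Cd4 and Cd8 cells. In library 2 no B cell lay in the range, and 8 Cd8 cells had 6.74%, 7 Treg cells 6.95% and 14 other Cd4 cells 22.1%. Shallow macrophages had 5.95%, 18.8% and 6.59% in libraries 1, 2 and 3. None of this was tested.

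Of the 120 genes that were higher in cluster 5 per cell, Mmp9, which encodes a gelatinase, had the largest log2 fold change, 3.43 ± 0.61, and was chosen after its values were seen. Below and above the median depth of cluster 5, the mitochondrial share was 9.43%, 8.04% and 6.16% against 7.27%, 7.41% and 5.73% in libraries 1, 2 and 3, and the ribosomal share 4.64%, 4.52% and 5.50% against 4.76%, 5.69% and 4.02%. The deeper cells of the cluster thus kept its low ribosomal share.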
